A study of Mus musculus with 8 samples.

Results

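Organic ion and drug transporters were followed in kidney cortex of mice labelled Sav1-/- and treated with tamoxifen (Sav1-null, 4 libraries) and of mice labelled Sav1+/+ and treated with vehicle (wild-type, 4 libraries). Members were all gene symbols of the deposited expression table that belong to the Slc22a, Slc47a, Slco, Abcb, Abcc and Abcg families, which gave 69 of 21705 gene names. Sav1 encodes salvador, a scaffold of the Hippo kinase pathway. The labels give a mixed background strain for both groups, and name neither the age or sex of the mice nor the driver and tissue of the Sav1 deletion. Genotype and treatment changed together and cannot be told apart. Sav1 itself had 983, 914, 982 and 714 in the Sav1-null libraries, against 1504, 1743, 959 and 1193 in the wild-type libraries. It fell 1.48-fold (limma adjusted p = 0.0220) with overlapping groups, and as the labels do not name the deleted exons, this value does not show how much intact transcript was left.

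The proximal tubule clears drugs, toxins and waste anions and cations from blood in a pair of steps. Uptake carriers of the Slc22a family (organic anion transporters, OATs, and organic cation transporters, OCTs) and of the Slco family (organic anion transporting polypeptides, OATPs) bring the compounds into the cell. Efflux carriers then release them, among them the proton-coupled Slc47a extruders (MATEs) and the ATP-driven pumps of the Abcb, Abcc and Abcg families. Some members work elsewhere: several Abcb proteins sit in mitochondria or lysosomes, and Abcc8 and Abcc9 regulate potassium channels.

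The values are deposited RSEM expression levels, scaled so that the upper quartile of the values above 0 lies near 1000 in each library. The depth was about 15700000 to 20900000 reads in a Sav1-null library and 20500000 to 25000000 in a wild-type library. All 12 defining markers of the proximal tubule passed the filter on low values, and their summed level was 36074 to 98442 in the Sav1-null libraries, lowest in replicate 4, against 321345 to 368882 in the wild-type libraries. Of these 12 markers 11 fell and 0 rose, with a median log2 fold change of -2.03. In bulk tissue, fewer cells of a type and less RNA per cell cannot be told apart. All 8 injured tubule markers rose (summed level 50742 to 91736 in the Sav1-null libraries and 4474 to 6990.4 in the wild-type libraries), as did 7 of 7 tested leukocyte markers (4158 to 5988 in the Sav1-null libraries and 771 to 1495 in the wild-type libraries). Xist, the RNA of the inactive X chromosome, averaged 12229 ± 2922 (SD, n = 4) in the Sav1-null libraries and stayed under 1 in each wild-type library, while the Y-linked Eif2s3y was at 0 in each Sav1-null library and at 1205 ± 88.6 in the wild-type libraries. Ddx3y, Uty and Kdm5d, also Y-linked, were at 0 in each Sav1-null library and averaged 784, 548 and 378 in the wild-type libraries. This is the transcript pattern of female mice in the Sav1-null group and of male mice in the wild-type group. The part of these differences in the transporter results was not tested, and sex, genotype and treatment cannot be told apart. The labels name no sequencing run; the same sample numbers recur in the column headers of both groups, and a run that followed the groups could not be told apart from them either.

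Of the 69 members, 48 passed the filter, a mean value of 10 or more across all 8 libraries, and were tested. Genes were compared with limma on log2(value + 1), a scale that understates changes of low genes, and were called at an adjusted p under 0.05 over all 13677 tested genes. Among the 48 tested members, 13 rose and 26 fell. This makes 81.2% of them called, against 69.1% of all tested genes called, 43.9% higher and 25.2% lower. Of all calls 63.5% were higher as deposited, 49.9% under median-of-ratios rescaling, 48.8% under quantile normalization and 81.7% with equal library totals; of the members' calls 33.3%, 30.8%, 23.7% and 38.5% were higher. The median log2 fold change was -0.77 over the 48 tested members and 0.23 over all tested genes. The groups did not overlap in 37 of the 48, against 65.2% of all tested genes. Taken by family, 6 rose and 18 fell among 29 tested uptake members, and 7 rose and 8 fell among 19 tested efflux members. The efflux families include 5 tested organelle genes, of which 4 fell, and the potassium channel regulator Abcc9. Their 10 tested export pumps of the plasma membrane, 6 higher and 3 lower, had a median log2 fold change of 1.32. Median log2 fold changes were -1.62 for uptake members and -0.29 for efflux members, and the second turned to 0.09 with equal library totals. No test of the difference between these counts was made.

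**Figure D1:**
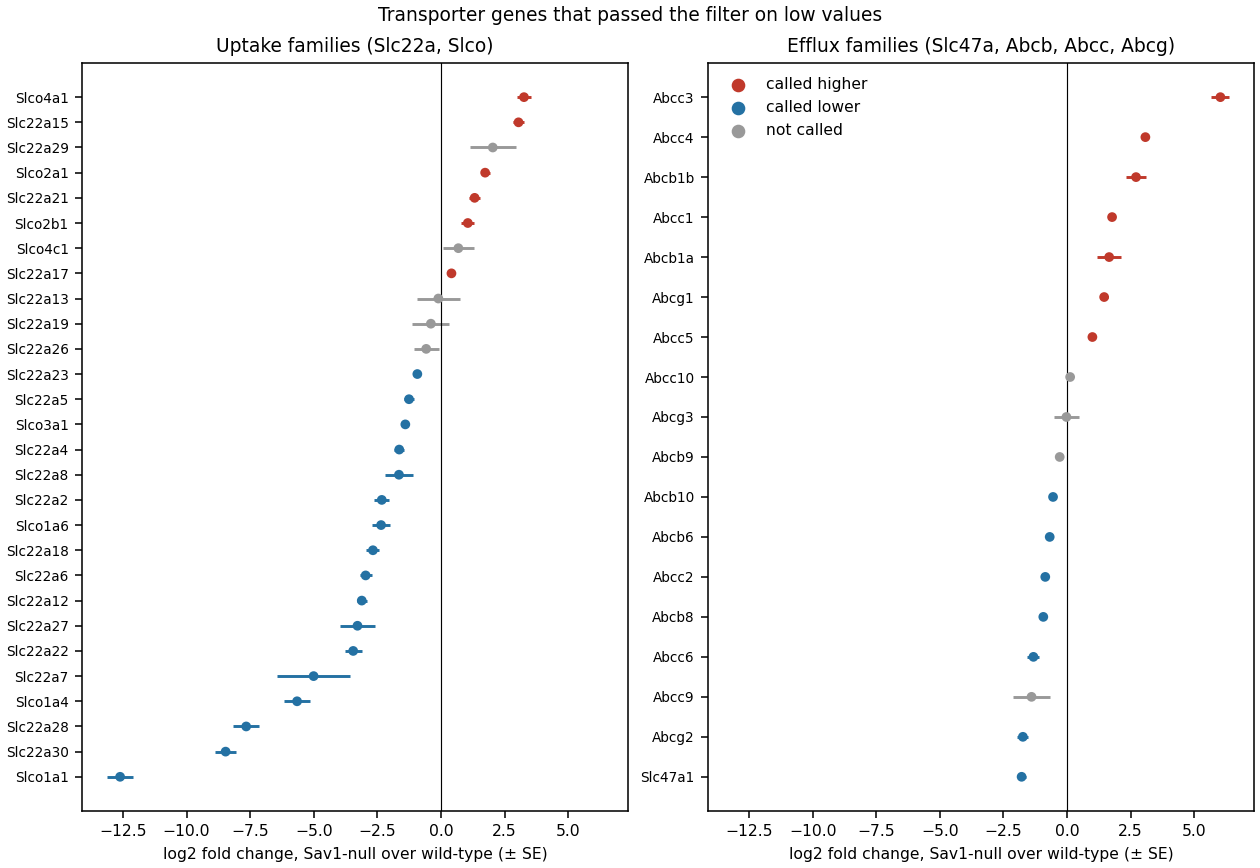
Log2 fold change (Sav1-null over wild-type, limma, with its SE) of 28 uptake genes (left) and 18 efflux genes (right) among those that passed the filter on low values. Red points were called higher, blue lower and grey not called. The uptake panel reaches down to Slco1a1 at -12.61, and the efflux panel up to Abcc3 at 6.03.

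The organic anion transporters of the Slc22a family include Slc22a12 and Slc22a6, which had the highest levels per length of all members in the wild-type libraries. Of 12 tested, 8 fell and 0 rose, each of the 8 at least 2-fold. Slc22a6 encodes OAT1, the basolateral carrier that takes organic anions up from blood. It had 8392, 6223, 7987 and 3628 in Sav1-null replicates 1 to 4, against 48442, 44726, 50439 and 50743 in wild-type replicates 1 to 4. The groups lay far apart, and Sav1-null replicate 4 was the lowest of all libraries. Slc22a6 fell 7.78-fold (log2 fold change -2.96 ± 0.24, SE, limma adjusted p = 7.20e-06). Slc22a8 encodes OAT3, a second basolateral anion carrier with a wide substrate range. Its values were 5014, 5539, 8615 and 1152 in the Sav1-null libraries, against 15472, 8377, 16029 and 12879 in the wild-type libraries. Here the groups overlapped: Sav1-null replicate 3 lay just above wild-type replicate 2. The fall of 3.14-fold (limma adjusted p = 0.0214) was not called once wild-type replicate 1 was left out (log2 fold change -1.56, adjusted p from limma 0.0530), nor once wild-type replicate 3 was (-1.54, 0.0550), nor under quantile normalization (-1.12, 0.126), and was smaller but called without Sav1-null replicate 4 (-1.04, 0.00423).

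Slc22a12 encodes URAT1, which takes urate back from the tubule fluid. Its values were 8952, 4407, 6233 and 6879.7 in the Sav1-null libraries, against 55620.3, 50664, 55888 and 60133 in the wild-type libraries, with no overlap. It fell 8.65-fold (limma adjusted p = 2.07e-06). Slc22a22 encodes OAT-PG, a prostaglandin carrier of mouse kidney, and had 747, 285, 457 and 206 in the Sav1-null libraries, against 4863, 3729, 4013 and 3969 in the wild-type libraries. All Sav1-null values lay below all wild-type values, a fall of 10.9-fold (limma adjusted p = 2.05e-05). Slc22a7 encodes OAT2. Its Sav1-null values ranged widely, at 483, 73.3, 958 and 2.95, against 3989, 4540.3, 2632 and 3037 in the wild-type libraries. Replicates 2 and 4 were the low ones, and the highest Sav1-null value was 324 times the lowest, while the groups did not overlap. The log2 fold change of Slc22a7 was -5.01 ± 1.44 (SE, limma adjusted p = 0.0115), and -5.73, -6.06 and -3.41 without Sav1-null replicate 1, 3 and 4 in turn. Slc22a13, which encodes OAT10, had its Sav1-null libraries in the same order (481, 185, 677 and 29.5 in the Sav1-null libraries, against 287, 305, 225 and 123 in the wild-type libraries) and was not called (limma adjusted p = 0.921).

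**Figure D2:**
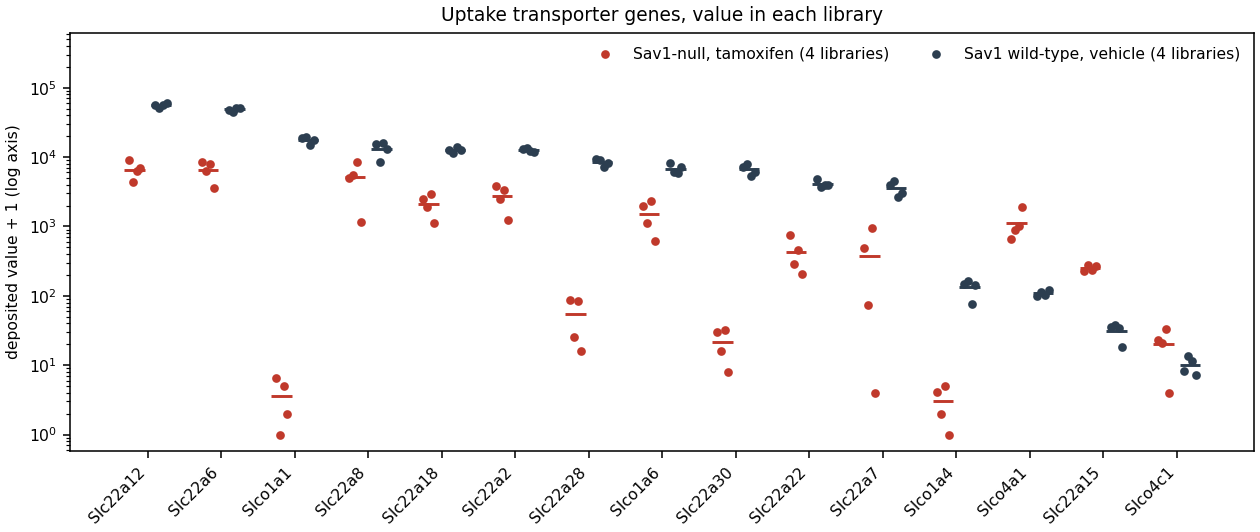
Deposited value + 1 (log axis) of 15 uptake genes in each library, ordered by their wild-type mean; red points are the Sav1-null libraries, dark points the wild-type libraries, and lines mark the arithmetic mean of 4 libraries. Slco1a1 shows the widest gap between the groups, Slc22a7 the widest spread within the Sav1-null group, and Slco4a1 and Slc22a15 lie higher in the Sav1-null libraries.

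Members of the Slc22a family lie in runs along the chromosomes. In the RefSeq annotation of GRCm38.p6 the genes Slc22a19, Slc22a26, Slc22a27, Slc22a28, Slc22a29, Slc22a30, Slc22a8 and Slc22a6 follow each other on chromosome 19 with 0 other protein-coding genes between them. All 8 were tested, 5 fell and 0 rose. Slc22a28 had 87.4, 24.4, 84.5 and 14.8 in the Sav1-null libraries, against 9312, 9216, 7114 and 8210.3 in the wild-type libraries, and fell 202-fold (limma adjusted p = 2.81e-06). Slc22a30 had 28.9, 14.9, 30.7 and 6.89 in the Sav1-null libraries, against 7091, 8003, 5332 and 6109 in the wild-type libraries, and fell 353-fold (limma adjusted p = 6.67e-07). Both were abundant in every wild-type library and low in every Sav1-null library. Slc22a29, which lies between them, was at 155, 119, 256 and 15.7 in the Sav1-null libraries, against 63.5, 12.6, 6.70 and 41.2 in the wild-type libraries. Its groups overlapped through Sav1-null replicate 4, and the log2 fold change of 2.04 ± 0.91 (SE) was not called (limma adjusted p = 0.0721). It was called higher without Sav1-null replicate 4 (2.87, limma adjusted p = 0.00399), without wild-type replicate 1 (2.53, 0.0433) and with equal library totals (2.41, 0.0315). Slc22a27, a low gene of the same run, fell by 3.28 on the log2 scale (limma adjusted p = 0.00183), or by 1.70 with a pseudocount of 10. Slc22a19, which encodes OAT5, and Slc22a26 had log2 fold changes of -0.40 and -0.58 and were not called (limma adjusted p = 0.643 and 0.315), though Slc22a26 was called lower after quantile normalization (-1.52). Slc22a19 had 957, 267, 1169 and 93.5 in the Sav1-null libraries, on both sides of the wild-type values of 759.9, 761, 367 and 397, again with replicates 2 and 4 low.

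**Figure D3:**
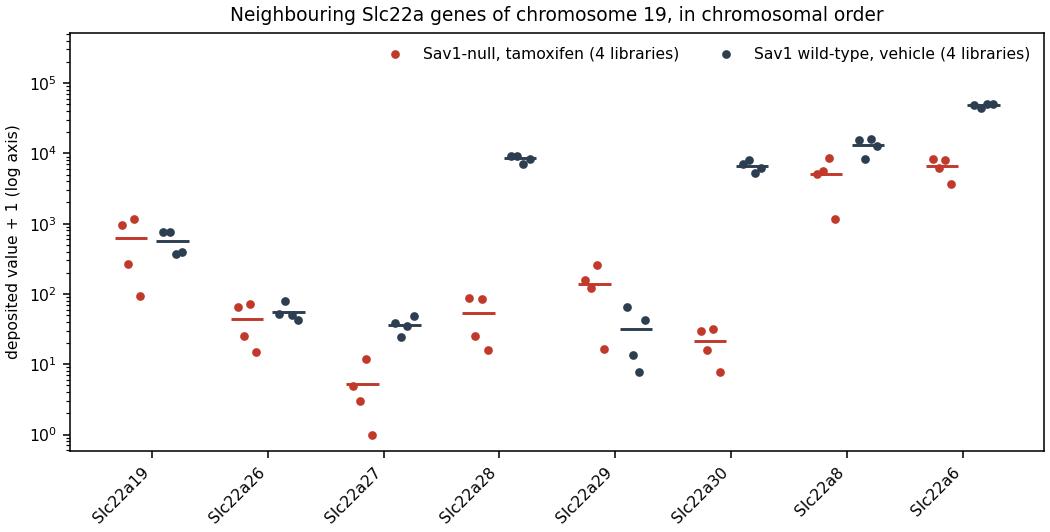
Deposited value + 1 (log axis) in each library for the 8 neighbouring Slc22a genes of chromosome 19, placed in chromosomal order; red points are the Sav1-null libraries, dark points the wild-type libraries, and lines mark the arithmetic mean of 4 libraries. Slc22a28 and Slc22a30 show gaps of 202-fold and 353-fold, and Slc22a29 between them lies higher in 3 of the 4 Sav1-null libraries than in any wild-type library.

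The start regions of these 3 neighbours are shown because the genes are close in sequence and differed in their values. They were thus chosen after the values were seen, and the part of these regions in the values was not tested. The windows run from 250 bases before to 50 bases after the annotated start (RefSeq, GRCm38.p6, a later build than the mm9 of the expression values). Those of Slc22a28 (chr19:8131933-8132232, minus strand) and Slc22a29 (chr19:8218851-8219150, minus strand) were aligned with that of Slc22a30 (chr19:8405056-8405355, minus strand). Capitals mark bases that differ from the aligned base of Slc22a30 or face a gap. Mismatches make up 6 of the 12 capitals of Slc22a28 and 56 of the 85 of Slc22a29.
Slc22a30: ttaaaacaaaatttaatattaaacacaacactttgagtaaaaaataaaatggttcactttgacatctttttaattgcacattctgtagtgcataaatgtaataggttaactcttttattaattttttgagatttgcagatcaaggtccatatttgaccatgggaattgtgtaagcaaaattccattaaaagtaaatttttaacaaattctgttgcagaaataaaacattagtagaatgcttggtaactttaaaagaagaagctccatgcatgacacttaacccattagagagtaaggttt
Slc22a28: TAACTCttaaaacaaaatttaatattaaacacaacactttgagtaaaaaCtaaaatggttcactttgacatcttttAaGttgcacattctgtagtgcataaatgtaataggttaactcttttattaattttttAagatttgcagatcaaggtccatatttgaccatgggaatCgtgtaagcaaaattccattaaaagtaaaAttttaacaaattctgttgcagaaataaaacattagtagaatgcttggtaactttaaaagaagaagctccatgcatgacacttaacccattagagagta
Slc22a29: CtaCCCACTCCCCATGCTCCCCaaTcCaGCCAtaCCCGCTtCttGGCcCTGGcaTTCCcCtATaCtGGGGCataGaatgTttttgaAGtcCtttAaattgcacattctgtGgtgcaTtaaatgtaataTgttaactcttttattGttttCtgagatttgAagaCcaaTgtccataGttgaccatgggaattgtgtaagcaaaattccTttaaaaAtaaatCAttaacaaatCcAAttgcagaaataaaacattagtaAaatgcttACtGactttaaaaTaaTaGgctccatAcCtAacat
Slc22a28 shared 288 of 300 bases with Slc22a30, and Slc22a29 shared 215 of 300. Pairs that involved other genes of the run shared from 145 (Slc22a26 and Slc22a8) to 197 (Slc22a19 and Slc22a30). The transcripts share stretches as well: 41.7% of the 50-base windows of the Slc22a28 transcript occur in that of Slc22a30, and 24.4% of those of Slc22a29 in Slc22a27. RSEM divides reads that match several genes by an estimate, so the separate levels of these 4 genes are uncertain.

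Slc22a2 encodes OCT2, the basolateral cation carrier of the tubule, and had 3798, 2513, 3306 and 1249 in the Sav1-null libraries, against 12955, 13497, 12154 and 11727 in the wild-type libraries. The groups did not overlap, and Sav1-null replicate 4 was the lowest library. Slc22a2 fell 5.01-fold (limma adjusted p = 9.89e-05). Slc22a3, which encodes OCT3 and lies beside Slc22a2 on chromosome 17, stayed below the filter, at 12.5, 9.78, 15.0 and 3.94 in the Sav1-null libraries, against 3.63, 6.70, 2.87 and 2.06 in the wild-type libraries. Without the filter it was called higher (log2 fold change 1.19, limma adjusted p = 0.0387). Slc47a1 encodes MATE1, the extruder that passes cations from the cell into the urine. Its values were 5509, 4497, 5909.5 and 3455 in the Sav1-null libraries, against 16799.8, 16586, 15894 and 16252 in the wild-type libraries, with no overlap and a fall of 3.45-fold (limma adjusted p = 1.07e-05). Slc47a2, the other extruder gene, had at most 2.93 in a Sav1-null library and 6.35 in a wild-type library.

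The size of changes was also compared within libraries, which does not depend on the scaling between libraries. Log2 ratios of 8 gene pairs, chosen with earlier results of these data known, were compared with two-sided exact permutation tests. The smallest possible p with 4 libraries in each group is 0.0286, and p-values were adjusted over the 8 pairs by Benjamini-Hochberg. For pairs chosen in this way, a p at this floor is weak support. For Slc47a1 over Slc22a2, efflux against uptake of cations, the log2 ratio was 0.54, 0.84, 0.84 and 1.47 in the Sav1-null libraries, against 0.37, 0.30, 0.39 and 0.47 in the wild-type libraries, higher by 0.54 (exact permutation p = 0.0286, adjusted p = 0.0327). The ratio of Slc22a6 over Slc22a8 was 0.74, 0.17, -0.11 and 1.65 in the Sav1-null libraries, against 1.65, 2.42, 1.65 and 1.98 in the wild-type libraries. Sav1-null replicate 4 lay among the wild-type ratios, and the difference of -1.31 did not pass the test (exact permutation p = 0.0857, adjusted p = 0.0857).

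The carnitine and zwitterion carriers of chromosome 11 are direct neighbours, of which 2 fell and 1 rose. Slc22a5 encodes OCTN2, which retains carnitine for fatty acid oxidation, and fell 2.39-fold (2686 ± 739 in the Sav1-null libraries and 6238 ± 641 in the wild-type libraries, SD, n = 4 each, limma adjusted p = 3.07e-04). Slc22a4 encodes OCTN1, a carrier of ergothioneine, and fell 3.11-fold (618 ± 166 in the Sav1-null libraries and 1868 ± 153 in the wild-type libraries, limma adjusted p = 6.61e-05). Slc22a21, a mouse carnitine carrier gene between them, had 69.5, 89.9, 78.2 and 74.8 in the Sav1-null libraries, against 25.4, 41.9, 32.5 and 24.7 in the wild-type libraries. It rose 2.51-fold (limma adjusted p = 3.88e-04), a call that quantile normalization removed (0.30 on the log2 scale, limma adjusted p = 0.159). It shares 23.8% of its 50-base windows with Slc22a5, so its level is uncertain.

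Members of the Slc22a family with less settled substrates also split. Slc22a18, an imprinted gene, had 2488, 1913, 2941 and 1125 in the Sav1-null libraries, against 12736, 11383, 14212 and 12668 in the wild-type libraries, with no overlap. It fell 6.38-fold (limma adjusted p = 1.85e-05). Slc22a15, whose human counterpart carries zwitterions, had 225, 282, 237 and 265 in the Sav1-null libraries, against 34.5, 36.9, 33.5 and 17.5 in the wild-type libraries. Its Sav1-null libraries lay close together, all above the wild-type ones, a rise of 8.28-fold (limma adjusted p = 5.57e-06). Slc22a23 fell 1.90-fold (limma adjusted p = 4.56e-05). Slc22a17, which encodes a receptor for the injury protein lipocalin 2, rose 1.33-fold (493 ± 48.6 in the Sav1-null libraries and 372 ± 55.8 in the wild-type libraries, limma adjusted p = 0.0179), a call lost under median-of-ratios rescaling (log2 fold change 0.19), under quantile normalization (0.16) and without Sav1-null replicate 3 (0.36, limma adjusted p = 0.0510).

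Among the OATP genes of the Slco family, 3 rose and 4 fell of 8 tested. Their median log2 fold change was -0.36 and varied widely with the settings: -1.40 with a mean of at least 50, -0.03 without Sav1-null replicate 4, -0.70 under quantile normalization, -0.57 under median-of-ratios rescaling and 0.01 with equal library totals. Slco1a1 encodes a carrier of bile acids and steroid conjugates that is known to be higher in male than in female mouse kidney. It had 5.47, 0, 3.95 and 0.984 in the Sav1-null libraries, against 18923, 19657, 15027 and 17470.1 in the wild-type libraries. The transcript was thus abundant in each wild-type library and at a few reads or 0 in each Sav1-null library. Xist and the Y-linked transcripts separated the same libraries. The part of sex was not tested for this gene or for any other member. The log2 fold change was -12.61 ± 0.51 (SE, limma adjusted p = 3.49e-07), and -10.48 with a pseudocount of 10. Slco1a4, a low gene, had 3.12, 0.978, 3.95 and 0 in the Sav1-null libraries, against 147, 162, 74.6 and 142 in the wild-type libraries, with no overlap. Its log2 fold change was -5.66 (limma adjusted p = 1.36e-05), or -3.52 with a pseudocount of 10. Slco1a6 had 1941, 1132, 2291 and 606 in the Sav1-null libraries, against 8144, 6178, 5849.8 and 7087 in the wild-type libraries, and fell 5.11-fold (limma adjusted p = 3.30e-04). It kept a clear level in each Sav1-null library, unlike Slco1a1 in the same chromosome 6 group. The log2 ratio of Slco1a1 over Slco1a6 was -8.23, -10.15, -8.85 and -8.26 in the Sav1-null libraries, against 1.22, 1.67, 1.36 and 1.30 in the wild-type libraries. With Slco1a1 at a few reads or 0, the Sav1-null ratios depend on the pseudocount. The exact permutation p = 0.0286 (adjusted p = 0.0327) adds no support, as the separation followed from values already called. Slco3a1 was even within groups and fell 2.64-fold (2989 ± 318 in the Sav1-null libraries and 7864 ± 479.7 in the wild-type libraries, limma adjusted p = 2.64e-06).

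Slco4a1, Slco2a1 and Slco2b1 were the OATP genes that rose. Slco4a1 encodes a carrier of thyroid hormones and prostaglandins and had 668, 900.3, 1014 and 1896 in the Sav1-null libraries, against 97.0, 111, 100.5 and 121 in the wild-type libraries. Sav1-null replicate 4 was the highest here, and every Sav1-null value lay above every wild-type value, a rise of 9.61-fold (limma adjusted p = 8.22e-06). Slco2a1, the prostaglandin transporter gene, rose 3.34-fold (880.1 ± 142 in the Sav1-null libraries and 265 ± 61.1 in the wild-type libraries, limma adjusted p = 2.28e-05). Slco2b1 rose 2.08-fold (limma adjusted p = 0.00441), a call that quantile normalization removed (0.46 on the log2 scale, limma adjusted p = 0.144). Slco4c1, in human a digoxin carrier of the tubule, was low, at 21.9, 19.6, 32.4 and 2.95 in the Sav1-null libraries, against 7.25, 12.6, 10.5 and 6.19 in the wild-type libraries. Sav1-null replicate 4 lay below all wild-type libraries and the other Sav1-null libraries above them; the gene was not called (limma adjusted p = 0.349), but was called higher without that replicate (log2 fold change 1.35, limma adjusted p = 0.00561).

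Of the 10 tested export pumps of the plasma membrane, 6 rose and 3 fell. Abcg2 encodes BCRP, an apical pump of drugs and urate, and had 6203, 4130, 5253 and 2766 in the Sav1-null libraries, against 16292, 14279, 14326 and 13807 in the wild-type libraries. The groups did not overlap and it fell 3.33-fold (limma adjusted p = 9.12e-05). Abcc2 encodes MRP2, an apical pump of conjugated anions. Its values were 4279, 3120.2, 4074 and 3499 in the Sav1-null libraries, against 6779, 6993, 7093 and 6106 in the wild-type libraries, a fall of 1.81-fold with no overlap (limma adjusted p = 1.07e-04). Abcc6, mutated in human pseudoxanthoma elasticum, fell 2.50-fold (limma adjusted p = 7.55e-04).

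Abcc4 encodes MRP4, a pump of cyclic nucleotides, prostaglandins and urate, and rose. It had 3491, 2969.7, 3091 and 3050.2 in the Sav1-null libraries, against 338, 377, 484 and 308 in the wild-type libraries. Both groups were even, and the rise of 8.45-fold (log2 fold change 3.08 ± 0.13, SE, limma adjusted p = 4.66e-07) included Sav1-null replicate 4, which lay level with the others. Abcc3 encodes MRP3, a pump of the basolateral side, and had 539.5, 418, 629 and 831 in the Sav1-null libraries, against 14.5, 10.9, 4.78 and 5.15 in the wild-type libraries. Its level was clear in every Sav1-null library and low in every wild-type library, a rise of 65.2-fold (limma adjusted p = 1.49e-06); the log2 fold change of 6.03 was 5.02 with a pseudocount of 10 and 5.28 after quantile normalization. Abcc1, which encodes the widely expressed pump MRP1, rose 3.41-fold (1106 ± 110.5 in the Sav1-null libraries and 323 ± 16.6 in the wild-type libraries, limma adjusted p = 8.87e-07), and Abcc5, a cyclic nucleotide pump gene, rose 1.99-fold (1238 ± 108 in the Sav1-null libraries and 623 ± 84.7 in the wild-type libraries, limma adjusted p = 4.53e-05). Abcc10 averaged 298 ± 31.2 in the Sav1-null libraries and 274 ± 19.3 in the wild-type libraries and was not called (limma adjusted p = 0.339), except with equal library totals (log2 fold change 0.50).

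**Figure D4:**
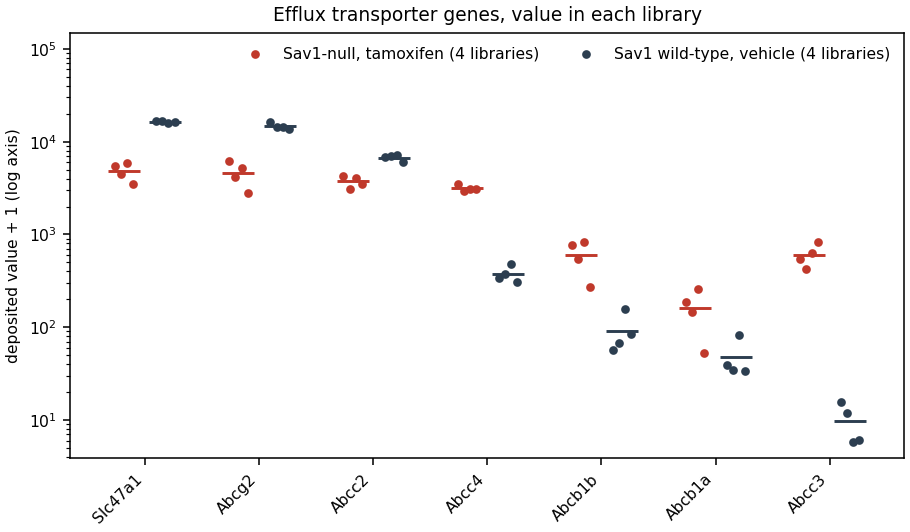
Deposited value + 1 (log axis) of 7 efflux genes in each library, ordered by their wild-type mean; red points are the Sav1-null libraries, dark points the wild-type libraries, and lines mark the arithmetic mean of 4 libraries. Slc47a1, Abcg2 and Abcc2 lie lower and Abcc4, Abcb1b and Abcc3 higher in every Sav1-null library than in any wild-type library, and Abcb1a overlaps through Sav1-null replicate 4.

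P-glycoprotein, the classical multidrug pump, is encoded in mouse by the neighbours Abcb1a and Abcb1b. Abcb1b had 775, 538, 825 and 271 in the Sav1-null libraries, against 55.3, 66.2, 157 and 84.5 in the wild-type libraries, and rose 6.55-fold (limma adjusted p = 2.68e-04). Abcb1a had 186, 145, 255 and 52.2 in the Sav1-null libraries, against 38.1, 33.5, 81.3 and 33.0 in the wild-type libraries, where Sav1-null replicate 4 lay below wild-type replicate 3. Its rise of 3.15-fold (limma adjusted p = 0.0123) was not called under quantile normalization (log2 value 0.79, limma adjusted p = 0.167). The log2 ratio of Abcb1b over Abcb1a was 2.05, 1.89, 1.69 and 2.35 in the Sav1-null libraries, against 0.53, 0.96, 0.94 and 1.33 in the wild-type libraries. It was higher in each Sav1-null library, by 1.06 on average (exact permutation p = 0.0286, adjusted p = 0.0327). Of the 50-base windows of Abcb1a, 15.5% occur in Abcb1b, so the split of reads between them is an estimate. Abcb4, the third gene of that run and a phospholipid exporter, was below the filter, with at most 6.89 in a Sav1-null library and 3.09 in a wild-type library.

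Other pairs set pumps against other carriers. The log2 ratio of Abcc4 over Slc22a6 was -1.27, -1.07, -1.37 and -0.25 in the Sav1-null libraries, against -7.16, -6.89, -6.70 and -7.36 in the wild-type libraries. The ratio was highest in Sav1-null replicate 4, and the mean difference was 6.04, or 65.7-fold. Abcc3 over Abcc2, the basolateral against the apical anion pump, was at -2.99, -2.90, -2.69 and -2.07 in the Sav1-null libraries, against -8.77, -9.20, -10.26 and -9.95 in the wild-type libraries, a difference of 6.88. For the urate carriers, Abcg2 over Slc22a12 was at -0.53, -0.09, -0.25 and -1.31 in the Sav1-null libraries, against -1.77, -1.83, -1.96 and -2.12 in the wild-type libraries, a difference of 1.38. In all 3 pairs each Sav1-null ratio was above each wild-type ratio. The Abcc4 and Abcc3 pairs join genes already called in opposite directions, so their ratios are a description with no further test. For Abcg2 over Slc22a12, both of which fell, the difference had an exact permutation p = 0.0286 and an adjusted p = 0.0327. Slc22a12 thus fell further than Abcg2 within the same libraries.

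The start windows of Abcc4 are shown because it was the efflux gene with the smallest p. RefSeq lists 2 starts, at chr14:118706170-118706469, minus strand, and at chr14:118676882-118677181, minus strand. Capitals mark the letters TGACNNNGC, the core of the antioxidant response element read by NRF2, searched on both strands; in the first window they stand as the reverse complement.
Abcc4 first start: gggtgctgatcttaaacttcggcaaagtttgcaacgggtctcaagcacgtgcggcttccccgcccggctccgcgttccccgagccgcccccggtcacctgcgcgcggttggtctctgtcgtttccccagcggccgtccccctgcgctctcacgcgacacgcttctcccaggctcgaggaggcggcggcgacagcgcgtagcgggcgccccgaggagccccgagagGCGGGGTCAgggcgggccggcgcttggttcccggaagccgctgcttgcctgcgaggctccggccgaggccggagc
Abcc4 second start: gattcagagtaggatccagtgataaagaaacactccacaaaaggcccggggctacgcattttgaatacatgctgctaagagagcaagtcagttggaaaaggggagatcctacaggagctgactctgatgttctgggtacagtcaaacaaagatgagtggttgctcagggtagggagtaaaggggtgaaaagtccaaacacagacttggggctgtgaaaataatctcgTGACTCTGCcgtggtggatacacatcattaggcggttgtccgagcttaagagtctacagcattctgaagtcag
The marked letters begin at position -25 in the first window, with the end of the core as they are reversed there, and at -23 in the second. The core occurs in 4071 of 32851 promoter windows (12.4%). It occurs in 3 of 13 windows of members that rose and in 2 of 22 windows of members that fell. The 3 windows are both of Abcc4, chosen for display after its values were seen, and that of Abcb1a, so they stand for 2 genes. Of the other motifs searched, the TATA box TATAAA occurs in 1 of 13 windows of members that rose, 5 of 22 of members that fell and 13.6% of all windows, and the GC box GGGCGG in 5 of 13, 7 of 22 and 35.7%. A match is a description of the letters and says nothing of binding. Nfe2l2, which encodes NRF2, averaged 4251 ± 268 in the Sav1-null libraries and 1879 ± 249.5 in the wild-type libraries, a 2.27-fold rise (limma adjusted p = 1.06e-05). Of the same list of regulator genes, Keap1 was not called (1004 ± 206 in the Sav1-null libraries and 990 ± 66.6 in the wild-type libraries, limma adjusted p = 0.997). The part of NRF2 in the value of Abcc4 or any other member was not tested.

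Of 5 tested ABC genes of organelles, 4 fell and 0 rose, none of them by 2-fold. The mitochondrial transporter genes Abcb8, Abcb6 and Abcb10 fell 1.91-fold, 1.61-fold and 1.47-fold (limma adjusted p = 1.22e-05, 6.36e-05 and 1.30e-04). The call of Abcb10 was lost with equal library totals (log2 fold change -0.17, limma adjusted p = 0.0531). Abcb9, a lysosomal peptide transporter gene, was not called (log2 fold change -0.29, limma adjusted p = 0.0987); it was called lower under median-of-ratios rescaling (-0.51), under quantile normalization (-0.85) and without Sav1-null replicate 4 (-0.39). Abcg1, which exports cholesterol, rose 2.75-fold (203 ± 30.3 in the Sav1-null libraries and 73.0 ± 6.57 in the wild-type libraries, limma adjusted p = 2.21e-05), while leukocyte markers rose in the same libraries; the part of those cells was not tested. Abcc9, a potassium channel regulator of vessel walls, was at 67.1, 80.2, 119 and 6.89 in the Sav1-null libraries, against 138, 134, 115 and 115 in the wild-type libraries. Replicate 4 stood far below the rest, and the gene was not called (limma adjusted p = 0.113), but was called lower without replicate 4 (log2 fold change -0.53), without Sav1-null replicate 3 (-1.84) and after quantile normalization (-2.14). Abcg3 averaged 11.4 ± 5.70 in the Sav1-null libraries and 11.9 ± 6.49 in the wild-type libraries, was not called as deposited (limma adjusted p = 0.965) and was called lower under quantile normalization (log2 fold change -1.11).

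Sav1-null replicate 4 took the lowest place in most genes that fell. It was the lowest Sav1-null library in 20 of the 26 members that fell, that is 76.9%, and in 61.9% of all genes called lower. Among the 13 members that rose it was the lowest in 5 and the highest in 5. Without it, 15 members rose and 28 fell. The summed proximal tubule marker level was likewise lowest in replicate 4, as was the summed endothelial marker level (1341 in replicate 4 and 2740.0 to 3305 in the other Sav1-null libraries) and that of fibroblast and smooth muscle markers (1489 in replicate 4 and 3141 to 3593 in the others), and its injured tubule marker level was the highest. Markers of other nephron segments also had their lowest summed level in replicate 4 (63178, against 95426 to 108887 in the other Sav1-null libraries). Of these 12 markers 3 rose and 4 fell, with a median log2 fold change of -0.30. Leukocyte markers were not lowest there (4334, against 4158 to 5988 in the others). The part of these levels in the transporter values was not tested.

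Levels can be compared between genes only per length of transcript. Dividing each value by the length of the longest annotated coding transcript in kilobases (kb) gave a level for 68 members. In the wild-type libraries Slc22a12 stood first at 24967 ± 1739.8 per kb (SD, n = 4), followed by Slc22a6 at 12199 ± 695, Slc22a18 at 8215 ± 745, Slc47a1 at 6208 ± 150.3 and Slc22a2 at 5733 ± 362. The first 3 were separated by more than their spread. Slco1a1 was at 4552 ± 523 per kb in those libraries. In the Sav1-null libraries Slc22a12 again stood first, at 2973 ± 843 per kb, and Slc47a1 second at 1835 ± 417. Slc22a6 at 1646 ± 544 and Slc22a8 at 1475 ± 889 did not differ from Slc47a1 beyond their spread. Abcc4 took place 11 of 68 in the Sav1-null libraries, at 551 ± 40.7 per kb, and place 28 in the wild-type libraries, at 66.0 ± 13.4. Slco1a1 took place 53 in the Sav1-null libraries and place 7 in the wild-type libraries.

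Summed over their members per kb, uptake families reached 14823 ± 4282 in the Sav1-null libraries and 83393 ± 3229.9 in the wild-type libraries (SD, n = 4 each). Efflux families, organelle genes and channel regulators included, reached 5457 ± 851 in the Sav1-null libraries and 11674 ± 324 in the wild-type libraries. Slc47a1, at 6208 per kb, and Abcg2, at 2567, made up most of the wild-type efflux sum. The largest parts of the wild-type uptake sum were Slc22a12, at 24967, and Slc22a6, at 12199. The sums thus follow a few genes that fell, while of 10 tested export pumps 6 rose and 3 fell. Uptake over efflux was 2.89, 2.56, 3.07 and 2.17 in the Sav1-null libraries, against 7.13, 6.77, 7.19 and 7.49 in the wild-type libraries, with no overlap. The Abcc pumps made up 8.25 ± 2.19% of the summed level in the Sav1-null libraries and 1.23 ± 0.114% in the wild-type libraries. These sums describe the libraries and were not tested.

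**Figure D5:**
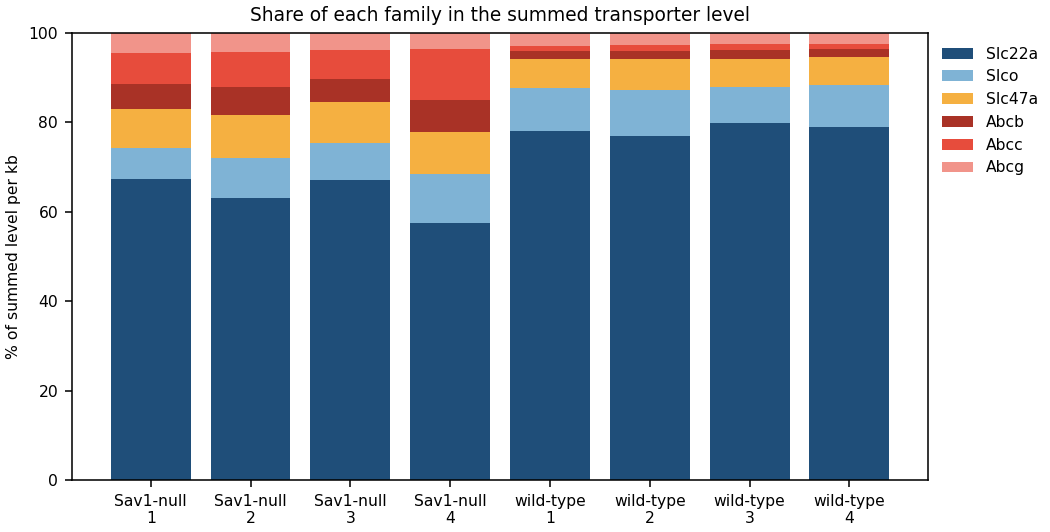
Share of each family in the summed level per kb of 68 transporter genes (%, bars stacked to 100%) in each of the 4 Sav1-null libraries (left) and 4 wild-type libraries (right). The uptake families Slc22a and Slco together hold 68.5% to 75.4% in the Sav1-null libraries and 87.1% to 88.2% in the wild-type libraries.

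Of the 69 members, 21 were below the filter, and 7 of these were listed at 0 in all 8 libraries (Abcb5, Abcc12, Slc22a16, Slc22a20, Slco6b1, Slco6c1 and Slco6d1). Slco5a1 had 15.6, 31.3, 13.4 and 14.8 in the Sav1-null libraries, against 0, 0, 1.91 and 0 in the wild-type libraries. Slc22a14 was listed at 0 in each wild-type library and had 3.90, 0.978, 7.11 and 0.984 in the Sav1-null libraries. Slco1b2, a liver uptake carrier gene, was listed at 0 in each Sav1-null library and had 1.81, 1.68, 0.957 and 1.03 in the wild-type libraries. The value of 1 read was 0.781 to 0.984 in the Sav1-null libraries and 0.838 to 1.03 in the wild-type libraries, so most of these values stand for a few reads. With no filter, Slco5a1 and Slc22a14 were called higher (log2 fold change 3.84 and 1.82, limma adjusted p = 4.87e-05 and 0.00630) and Slco1b2 lower (-1.23, limma adjusted p = 0.00172). The bile salt pump gene Abcb11 and the sterol pump genes Abcg5 and Abcg8 stayed at or under 3.90 in the Sav1-null libraries and 2.87 in the wild-type libraries.

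Outside these families, of 21 tested anion, urate, nucleoside and peptide carriers, 3 rose and 14 fell, with a median log2 fold change of -1.27. Slc13a3, which loads the cell with the dicarboxylates that OAT1 and OAT3 exchange, fell 3.70-fold (10062 ± 2198 in the Sav1-null libraries and 36825 ± 3928 in the wild-type libraries, limma adjusted p = 8.57e-06). The apical urate and phosphate transporter genes Slc17a1 and Slc17a3 fell 4.76-fold and 8.99-fold, and the nucleoside carrier gene Slc29a3 3.10-fold (limma adjusted p = 5.29e-06, 6.94e-06 and 4.30e-06). Among regulators and scaffolds of transporters, 5 rose and 11 fell of 19 tested, with a median of -0.55. The nuclear receptor gene Esr1 fell 6.84-fold (limma adjusted p = 3.52e-06), and Hif1a, of the oxygen response, rose 2.36-fold (limma adjusted p = 6.98e-06).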

How the data were processed

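The deposited table holds 1 value per gene and library, in the unit of a scaled signal and not counts; per the submitters' processing notes, RSEM, SAMtools and Picard 1.64 were used with build mm9. For the aligner, the annotation and the strand setting, nothing is given in the sources used here. The upper quartile of values above 0 was 999 or 1000 in each library. Depth was taken as the library total divided by the most frequent value above 0, read as 1 read. Groups came from sample titles; the labels name no separate animals, and p-values then cover only the spread of these libraries, which may be technical. Every pair of libraries in a group differed by more than sampling noise (chi-square 12.9 to 114 times its degrees of freedom, over genes with at least 20 reads).

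Values were analysed in R 4.3.3 with limma 3.58.1 (intensity trend, log2(value + 1), mean of at least 10, Benjamini-Hochberg over all tested genes). The procedure was checked on simulated data in which few genes changed, which does not cover data with most genes called. Fold changes are antilogs of log2 fold changes, Sav1-null over wild-type. Members, gene lists and pairs were chosen with earlier results of these data known. Values per library are given for renal transporters (Slc22a6, Slc22a8, Slc22a2, Slc22a12, Slc47a1, Slco4c1, Abcb1a, Abcb1b, Abcc2, Abcc4, Abcg2) and for called members with an absolute log2 fold change of at least 2 and a mean of at least 100 in the higher group, apart from items not reported here; others shown per library were chosen after their values were seen, as was Abcc4 for its sequence. Lengths and 50-base windows came from GENCODE vM21 transcripts (68 of 69 members matched), start windows from RefSeq GRCm38.p6 (54 of 69), aligned with Biopython 1.88. Alternatives were 2 pseudocounts (0.5 and 10), no filter or a mean of at least 50, 3 rescalings, limma without trend, a replicate block and leaving out each library.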

Additional observations from a re-analysis of the deposited data

Results flagged for a closer look

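In 62 groups of 4 libraries (named members and gene pairs), a library was set apart where its gap to the nearest other library was, as a share of the group's range, above Dixon's critical value; chance alone flags about 1 in 20 groups, and 3 were found. On the log2(value + 1) scale, Abcb1a stood at 6.36 in wild-type replicate 3, above the other wild-type libraries. Slc22a15 stood at 4.21 in wild-type replicate 4, below the others. Slco1a4 stood at 6.24 in wild-type replicate 3, below the others.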

How the results depend on the processing

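No called member changed sign under any of the 17 alternatives (39 called members), and among members tested both as deposited and under the alternative, 7 of the 39 lost their call under at least 1 and 7 uncalled members gained one. With no filter on low values 16 members rose and 27 fell, as Slco5a1, Slc22a14, Slc22a3 and Slco1b2 gained a call; with a mean of at least 50, Slc22a27 was not tested, and 13 rose and 25 fell. As deposited, 13 members rose and 26 fell; leaving out 1 library gave 12 to 15 higher and 24 to 28 lower. The uptake members that rose numbered 6 as deposited and 3 after quantile normalization; the cause was not tested. Rescaling moved the median over all tested genes (log2) by -0.22 (median-of-ratios), -0.25 (quantile) and 0.38 (equal totals), and the share of all calls that were higher, 63.5% as deposited, to 49.9%, 48.8% and 81.7%. Under those rescalings, 12 members rose and 27 fell, 9 rose and 29 fell, and 15 rose and 24 fell. Quantile normalization also reduced the log2 fold changes of Slc22a12 to -2.38, Slc22a6 to -2.23, Slc47a1 to -1.20, Slc22a15 to 2.19 and Abcg1 to 0.72, and moved Abcc6 to -1.99, Slco1a4 to -6.32 and Slc22a27 to -4.19; Slc22a27 was at -2.66 without Sav1-null replicate 4. A pseudocount of 10 moved Slc22a30 to -7.85.

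Libraries of the groups share replicate numbers, but nothing pairs them: deviations of same-numbered libraries correlated at 0.144, 0.0762, -0.169 and 0.135 across genes. With a replicate block 13 members rose and 26 fell. For the gene pairs, leaving out 1 library or pairing by number cannot give a p under 0.05 (the smallest are 0.0571 and 0.125); each difference kept its sign when 1 library was left out.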
